A study of Mus musculus with 6 samples.

Results

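The genes described here are 10 markers by which mesenchymal stromal cells (MSCs, the plastic-adherent stroma of bone marrow) are recognised. They are 6 cell surface proteins (Cd44, Eng, Alcam, Cd200, Thy1 and Nt5e), the secreted factor Grem1, and the transcription factors Prrx1, Twist1 and Twist2. They were chosen by name, as rows of the deposited table whose Ensembl identifier carries one of these symbols in the mouse GENCODE M21 annotation, and all 10 were found among 49328 listed genes. The cells came from digested whole marrow of CB6F1 mice, an F1 hybrid strain, and every donor mouse had acute graft-versus-host disease, the attack of a transplant's immune cells on its host. Cultures received a compound named only R (0.5 um as labelled) or the vehicle DMSO, in 3 libraries each, and RNA was sequenced. The sources used here give neither the identity of R, nor the length of treatment, nor whether replicates are separate mice or cultures. A p-value therefore measures only the spread among these libraries, which may be technical.

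Stromal cells are defined in culture by a panel of surface antigens rather than by a single gene. CD44 binds hyaluronan in the matrix, endoglin (Eng) is a co-receptor for ligands of the TGF-beta and BMP family, and CD73 (Nt5e) makes adenosine from AMP outside the cell. Prrx1 is a homeobox factor, and Twist1 and Twist2 are basic helix-loop-helix factors that hold mesenchymal progenitors back from bone formation. Several panel members are not exclusive to stroma: mouse Thy1 is carried by T cells, Eng by endothelium and activated macrophages, and Cd44 by most leukocytes.

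No marker was called changed by R. Of the 10 genes, 7 were high enough to be tested and 3 (Thy1, Nt5e and Twist2) were not. A gene was tested if it reached 1 FPKM (sequenced fragments relative to gene length and to the reads counted in a library) in at least 3 of the 6 libraries, and each of the 7 did so in all 6. In limma, with Benjamini-Hochberg adjustment over 11862 tested genes, 0 of the 7 passed an adjusted p of 0.05 in either direction, and 3 had an unadjusted p under 0.05, all higher in R. Over all tested genes 6.82% were called, 2.39% higher and 4.43% lower, and 11.4% were higher at an unadjusted p under 0.05. The log2 change (log2(FPKM + 1) in R minus that in vehicle) was positive in 6 of the 7 and negative in Eng, with a median of 0.53, where 49.3% of all tested genes were positive with a median of 0. With 3 libraries against 3, an exact permutation test of a single gene cannot go below p = 0.1.

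**Figure D1:**
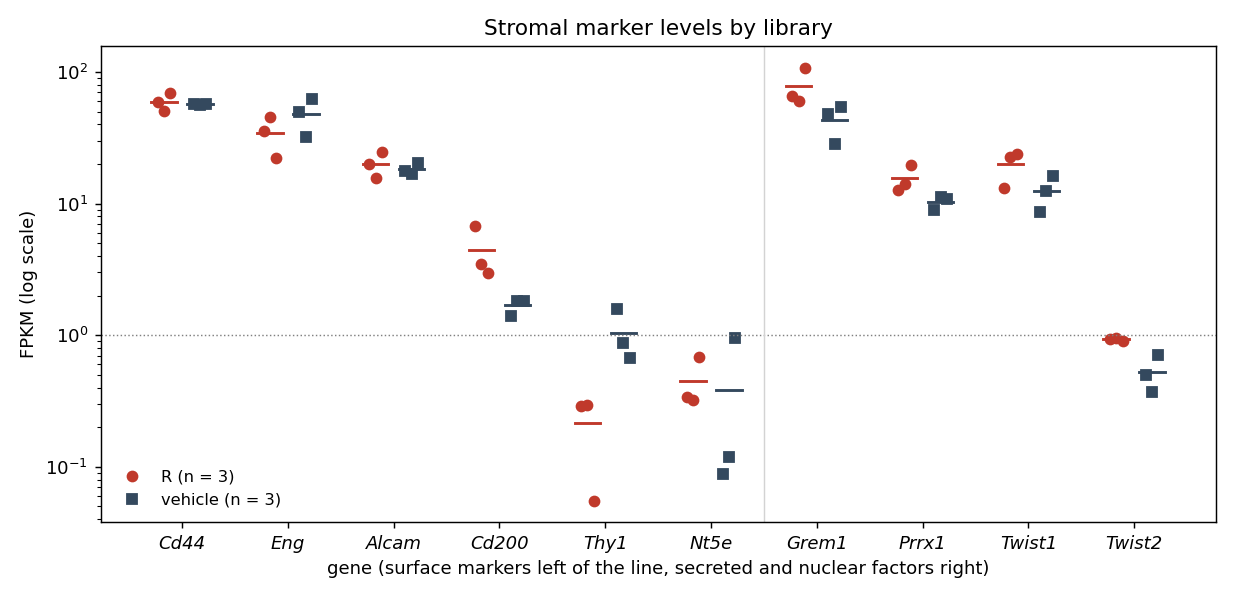
FPKM of each stromal marker (log axis) in the 3 R libraries (red circles) and the 3 vehicle libraries (dark squares), with bars at the group means and a dotted line at 1 FPKM. All R points of Cd200, Grem1, Prrx1 and Twist2 lie above all vehicle points, those of Thy1 lie below, and the groups overlap for the other 5 genes. Among all tested genes 13.9% had all R values above. Of genes below 1 FPKM in most libraries but above 0 in every library, 10.9% had all R values above and 8.67% all below.

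Depth and sample identity bear on all of these values. Libraries held an estimated 17060000 to 21730000 reads, and they correlated at 0.977 to 0.986 within a group and 0.936 to 0.963 between groups across genes, which are not independent replicates. Macrophage transcripts were abundant in both groups: the summed level of 15 macrophage markers ran between 13100 and 16200 FPKM over the R libraries and between 15900 and 21200 FPKM over the vehicle libraries. Most of this sum was Lyz2, with means of 9450 FPKM in R and 11100 FPKM in vehicle, and its groups overlapped. The summed level of 12 fibroblast markers ran between 1500 and 2180 FPKM over the R libraries and between 728 and 1370 FPKM over the vehicle libraries. Its largest parts were Fn1 (means of 696 FPKM in R and 436 FPKM in vehicle) and Col1a1 (479 and 214 FPKM). Among the fibroblast markers, Dcn (decorin) averaged 0.152 FPKM in R and 0.316 FPKM in vehicle, and Lum (lumican) was at 0 in at least 1 library of each group. In such bulk RNA, fewer cells of a type and less RNA per cell cannot be told apart.

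Cd44, Eng and Alcam were the surface markers with high levels. Cd44 (chromosome 2, 102811141 to 102901665, GRCm38) had 59.4, 50.4 and 68.9 FPKM in R replicates 1, 2 and 3, against 57.2, 56.1 and 56.8 FPKM in vehicle replicates 1, 2 and 3. The 3 vehicle values lay within the range of the R values and spread far less, with a coefficient of variation of 0.912% in vehicle and 15.5% in R. The log2 change was 0.06 (95% interval -0.22 to 0.34, limma, adjusted p = 0.82), an interval that runs on the FPKM + 1 scale from 0.858-fold to 1.26-fold. Without R replicate 3 it was -0.05.

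Alcam (CD166), an adhesion molecule that binds CD6 on T cells and other ALCAM molecules, lies on chromosome 16 (52248996 to 52454074). It stood at 20.0, 15.7 and 24.6 FPKM in R and at 17.8, 16.7 and 20.4 FPKM in vehicle. The groups overlapped, and R replicate 2 was the lowest and R replicate 3 the highest of the 6 libraries. Its log2 change of 0.11 (95% interval -0.27 to 0.49, limma, adjusted p = 0.73) became -0.04 without R replicate 3.

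Eng (chromosome 2, 32646595 to 32682669) was the 1 tested marker with a negative value. It had 35.7, 45.5 and 22.2 FPKM in R libraries and 49.3, 31.8 and 62.2 FPKM in vehicle libraries. The groups overlapped, with R replicate 3 lowest and vehicle replicate 3 highest. The log2 change was -0.46 (95% interval -1.19 to 0.26, limma, adjusted p = 0.42), and it ran from -0.72 to -0.19 when libraries were left out in turn. Its exons share 61 of 4048 bases with Fpgs on the other strand, which was at 3.87 to 5.28 FPKM.

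Cd200, a ligand that restrains macrophages through the receptor CD200R1, had the largest positive value among the 7 tested markers. It lies on chromosome 16 (45382135 to 45409053) and had 6.81, 3.48 and 2.97 FPKM in R, against 1.41, 1.83 and 1.82 FPKM in vehicle. Each R library lay above each vehicle library, as it did in 13.9% of all tested genes, and R replicate 1 stood apart from the other two. The mean was 4.42 ± 2.09 FPKM in R and 1.69 ± 0.24 FPKM in vehicle (SD, n = 3 each). The log2 change of 0.95 (SE 0.25, 95% interval 0.37 to 1.53) had an unadjusted p of 0.0062 in limma and did not pass after adjustment (adjusted p = 0.069). It was 0.65 without R replicate 1.

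Thy1 (CD90) and Nt5e (CD73), both standard antigens of human MSCs, were low, with at most 1.58 FPKM in any library. Thy1 (chromosome 9, 44043384 to 44048579) had 0.292, 0.297 and 0.0554 FPKM in R, which correspond to 19, 16 and 3 reads. In vehicle it had 1.58, 0.873 and 0.667 FPKM, or 81, 49 and 40 reads. All R values lay below all vehicle values, as in 8.67% of the 4565 genes that were below the filter and above 0 in every library. The R mean was 0.206 of the vehicle mean, and the difference could not pass an exact permutation test (two-sided p = 0.1, the smallest possible). When genes of any level entered the fit, limma gave a log2 change of -0.73 with an adjusted p of 0.15. On a scale with a smaller pseudocount of 0.1 the change was -1.9.

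Transcripts of T and NK cells, which carry Thy1 in mice, were low in both groups. The summed level of 12 T and NK cell markers was 8.54, 3.5 and 3.6 FPKM in R and 15.4, 13.7 and 8.42 FPKM in vehicle. Of the 12, 7 had all R values below all vehicle values. These were 2 of the 3 tested members, where 15.5% of all tested genes did so, and 5 of the 9 below the filter, where 8.67% did so of such genes above 0 in every library (Gzmb and Prf1, among the 5, were not). The co-receptor Cd4 had all R values above, at 4.25, 1.43 and 1.58 FPKM in R against 0.974, 1.27 and 0.942 FPKM in vehicle. The granule protein Nkg7 was the 1 marker of this list that passed (log2 change -1.47, limma, adjusted p = 0.0079), with 0, 0.243 and 0.182 FPKM in R and 3.01, 2.16 and 1.48 FPKM in vehicle. It reached 1 FPKM in vehicle libraries only, and so entered the test through the group where it was high. The same limit applies to its place among the 2 tested members with all R values below. The T cell receptor gene Trbc2 had 1.86, 0.321 and 0.48 FPKM in R and 2.96, 3.01 and 1.95 FPKM in vehicle (log2 change -1.02, limma, adjusted p = 0.09). Cd3e, a defining T cell gene, had 0.0676, 0.0681 and 0.0136 FPKM in R and 0.144, 0.353 and 0.0612 FPKM in vehicle, groups that overlapped. Cd2, Nkg7, Gzmb and Prf1 were at 0 in at least 1 R library, and 0 of the 12 were at 0 in a vehicle library. The part of these cells in the level of Thy1 was not tested.

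**Figure D2:**
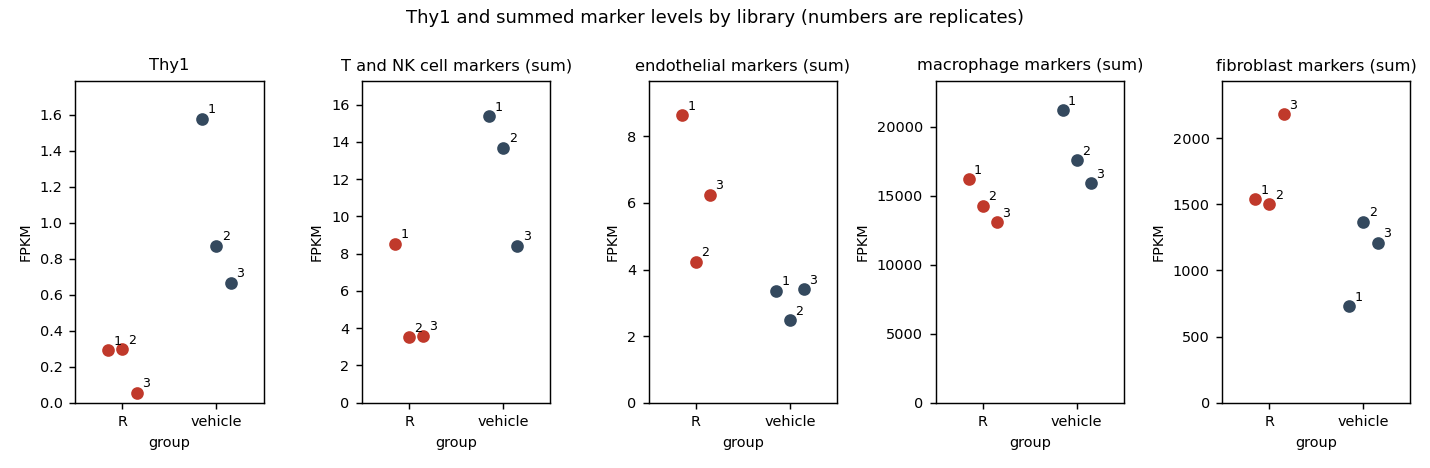
FPKM of Thy1 and summed FPKM of 4 marker lists in each library, with R left of vehicle and replicate numbers beside the points. Thy1 lies at or below 0.297 FPKM in R and at or above 0.667 FPKM in vehicle, and the T and NK cell sum is at most 8.54 FPKM in R and at least 8.42 FPKM in vehicle, a slight overlap.

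Nt5e (chromosome 9, 88327197 to 88372092) varied more between libraries than between groups. It had 0.337, 0.323 and 0.688 FPKM in R (63, 50 and 107 reads) and 0.0885, 0.118 and 0.947 FPKM in vehicle (13, 19 and 163 reads). Vehicle replicate 3 was the highest of all 6 libraries, and the other vehicle libraries were the lowest. The difference on the log2(FPKM + 1) scale was 0.11 (exact permutation test, two-sided p = 0.6), and it was 0.38 without vehicle replicate 3.

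Grem1 (gremlin, chromosome 2, 113746164 to 113758646) is a secreted protein that binds BMPs and keeps them from their receptors. It was the most abundant of the 10 markers in R, at 66.0, 60.4 and 108.0 FPKM, against 47.8, 28.2 and 53.9 FPKM in vehicle. The groups did not overlap, with all R values above, as in 13.9% of all tested genes. R replicate 3 was far above the other libraries. The log2 change was 0.84 (SE 0.29, 95% interval 0.15 to 1.53, limma, unadjusted p = 0.023, adjusted p = 0.14), and with single libraries left out it was between 0.57, without vehicle replicate 2, and 1.02, without vehicle replicate 3. It was 0.58 without R replicate 3. Within each library the ratio of Grem1 to Eng was 1.85, 1.33 and 4.88 in R and 0.971, 0.888 and 0.866 in vehicle, so that Grem1 exceeded Eng in each R library and in no vehicle library. This pair sets a marker with a positive log2 change against the only tested marker with a negative one. The groups of Eng itself overlapped, and no share over other gene pairs is at hand.

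The 3 mesenchymal transcription factors all had positive values. Prrx1 (chromosome 1, 163245119 to 163313710) stood at 12.7, 14.1 and 19.8 FPKM in R and at 9.0, 11.2 and 10.8 FPKM in vehicle. Each R library exceeded each vehicle library, as in 13.9% of all tested genes, and R replicate 3 was again the highest. The log2 change was 0.53 (SE 0.17, 95% interval 0.14 to 0.92, limma, unadjusted p = 0.015, adjusted p = 0.11).

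Twist1 (chromosome 12, 33957671 to 33959829) had 13.1, 22.6 and 23.9 FPKM in R and 8.6, 12.5 and 16.1 FPKM in vehicle. R replicate 1 lay below vehicle replicate 3, so that the groups overlapped. Its log2 change was 0.64 (95% interval -0.01 to 1.28, limma, adjusted p = 0.22), and it ran from 0.42 to 0.9 with single libraries left out.

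Twist2 (chromosome 1, 91801461 to 91848028) was expressed at a small fraction of its paralogue. It had 0.942, 0.946 and 0.907 FPKM in R (65, 54 and 52 reads) and 0.498, 0.37 and 0.709 FPKM in vehicle (27, 22 and 45 reads). All R values exceeded all vehicle values, as in 10.9% of the genes below the filter and above 0 in every library (exact permutation test, two-sided p = 0.1). The log2 change was 0.35 with a pseudocount of 1 and 0.76 with one of 0.1. The exons of Twist2 share 1477 of 3174 bases with the antisense RNA Gm29100, at most 0.0797 FPKM in any library, and since strandedness is not given its value is uncertain. Twist1 was 13.9, 23.9 and 26.4 times as high as Twist2 per length in R and 17.3, 33.8 and 22.7 times as high in vehicle, with overlap between the groups.

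The promoters of the transcription factors are shown because all 3 of these regulators had positive values and Twist1 and Twist2 are paralogues with very different levels. RefSeq (GRCm38.p6) gave 9 of the 10 members, all but Thy1, and its start sites can differ from the GENCODE bounds given above. By those bounds, the bases before the start lie partly inside the gene for Prrx1 and wholly inside it for Nt5e and Alcam. The bases before the start site are printed 5′ to 3′ on the strand of the gene, for Prrx1 at chr1:163313651-163313900 (minus strand), for Twist1 at chr12:33957421-33957670 (plus strand) and for Twist2 at chr1:91801211-91801460 (plus strand). Capitals mark any match on either strand to 4 motifs, the E-box CANNTG that Twist proteins bind, the STAT motif TTCNNNGAA, the CCAAT box (CCAAT or ATTGG) and TATAAA (or TTTATA).
Prrx1: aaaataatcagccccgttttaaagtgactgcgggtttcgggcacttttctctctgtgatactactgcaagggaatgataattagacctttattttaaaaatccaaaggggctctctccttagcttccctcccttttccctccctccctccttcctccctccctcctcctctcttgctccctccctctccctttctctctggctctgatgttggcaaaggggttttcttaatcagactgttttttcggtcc
Twist1: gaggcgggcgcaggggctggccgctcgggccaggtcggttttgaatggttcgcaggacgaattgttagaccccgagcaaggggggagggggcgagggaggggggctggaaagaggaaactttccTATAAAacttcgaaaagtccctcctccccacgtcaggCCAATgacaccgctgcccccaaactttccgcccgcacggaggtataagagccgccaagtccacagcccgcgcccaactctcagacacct
Twist2: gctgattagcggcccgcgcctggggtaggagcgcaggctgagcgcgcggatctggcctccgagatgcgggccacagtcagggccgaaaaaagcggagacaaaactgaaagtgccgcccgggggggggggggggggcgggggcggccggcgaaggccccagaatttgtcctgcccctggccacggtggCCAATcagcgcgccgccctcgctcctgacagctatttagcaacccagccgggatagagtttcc
Both Twist promoters held 1 CCAAT box, a motif present in 33.8% of 32851 promoters of the same length, and Twist1 also held 1 TATAAA, present in 12.4%. The Prrx1 stretch held none of the 4. An E-box, present in 66.2% of promoters, occurred in none of these 3 stretches, nor in those of Cd44 and Grem1, while Cd200 held 2 (CATTTG and CACATG) and Eng, Nt5e and Alcam 1 each. The STAT motif, present in 7.02% of promoters, was in none of the 9 stretches. The motifs do not overlap one another in the printed stretches, and the matches are letters only and say nothing about binding.

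**Figure D3:**
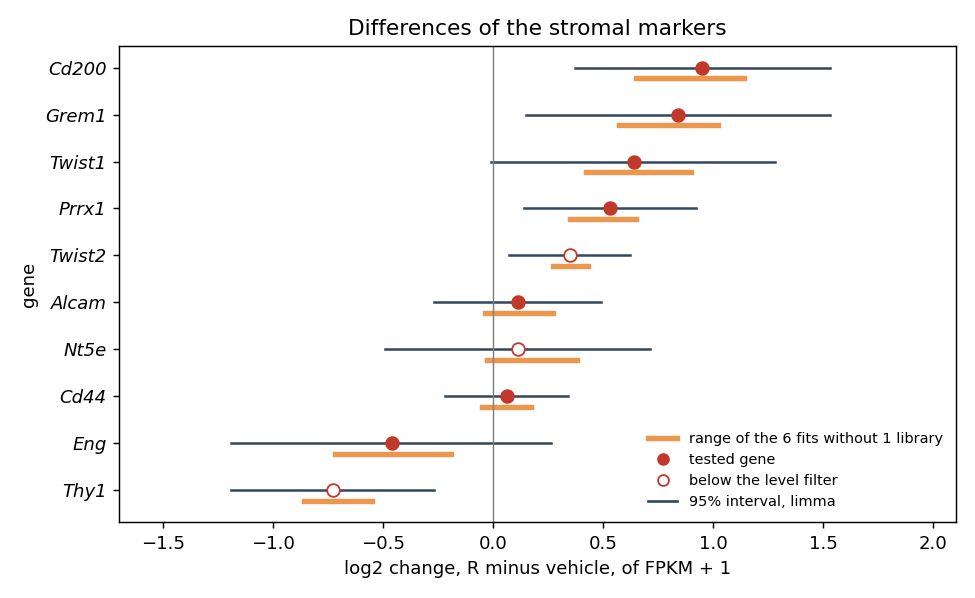
Log2 change of each marker, as log2(FPKM + 1) in R minus that in vehicle, with its 95% interval in limma (dark line) and the range over the 6 sets that leave out 1 library (orange line). Open circles are the 3 genes below the level filter, whose intervals come from the fit with no filter; Cd200 has the highest value (0.95) and Thy1 the lowest (-0.73).

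The order of levels per length differed at the top between the groups. In R, Grem1 led with a mean of 78.3 ± 26.3 FPKM, followed by Cd44 at 59.6 ± 9.23 and Eng at 34.5 ± 11.7 FPKM (SD, n = 3). In vehicle, Cd44 led with 56.7 ± 0.517 FPKM, followed by Eng at 47.7 ± 15.2 and Grem1 at 43.3 ± 13.4 FPKM (SD, n = 3). In R the ranges of Grem1 and Cd44 overlapped, while those of Cd44 and Eng did not. In vehicle Cd44 overlapped with Eng and Eng with Grem1, while Cd44 lay above Grem1 in all 3 libraries. Alcam, Twist1 and Prrx1 came next in both groups, with overlap between Twist1 and Prrx1 in each. Among the lowest genes, Thy1 was last in R and by its mean above Twist2 and Nt5e in vehicle. In vehicle replicate 3 Thy1 was below both, at 0.667 FPKM against 0.709 FPKM for Twist2 and 0.947 FPKM for Nt5e. In place among all tested genes, Cd44 was at the 92.5th percentile in R and the 92.3rd in vehicle, and Cd200 at the 32.9th in R and the 11.5th in vehicle (means over 3 libraries).

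R replicate 3 was the highest R library for 5 of the 7 tested markers and the lowest for the other two, Eng and Cd200. Vehicle replicate 3 was the highest vehicle library for 4 of the 7 and the lowest for 0. The mean standardised profile of the 7 was 0.29, -0.01 and 0.9 SD units in R replicates 1, 2 and 3 and -0.56, -0.68 and 0.06 in vehicle replicates 1, 2 and 3. The vehicle library with the highest profile thus lay above the R library with the lowest. The 5 other tested genes whose log2 levels were most like this profile were Kifc3, Lmtk2, Rps6ka2, Rwdd4a and Efnb2, with Pearson's r of 0.993 to 0.985 over 6 libraries, and their own log2 changes were 0.2 to 0.52 (limma, adjusted p = 0.12 to 0.31). These 5 were picked for their likeness out of all tested genes, over only 6 libraries. High r and positive log2 changes therefore follow largely from the selection.

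The binding partners and enzymes of the surface markers had values in both directions. Of 23 listed genes 17 were tested, of which 1 was called higher and 2 lower, with a median log2 change of 0.05. The shares over all tested genes were 2.39% higher and 4.43% lower. Itgb3, the integrin chain that with Itgav binds THY1, had 7.36, 4.65 and 5.56 FPKM in R and 1.56, 2.65 and 2.13 FPKM in vehicle (log2 change 1.13, SE 0.19, limma, adjusted p = 0.016). Without R replicate 3 its adjusted p in limma was 0.051. Each R library lay above each vehicle library, as in 13.9% of all tested genes, while Itgav had a log2 change of 0.21 that did not pass.

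In the adenosine pathway around Nt5e, the enzyme before it and a receptor after it were called lower in R, while other listed genes were not called. Slc29a1 and Ada had positive log2 changes of 0.45 and 0.13 (limma, adjusted p = 0.24 and 0.7). The receptors Adora1 and Adora2a were below the filter, and their groups overlapped. Entpd1 (CD39), which makes AMP from ATP and ADP, had 17.3, 16.2 and 18.0 FPKM in R and 42.4, 35.7 and 23.5 FPKM in vehicle (log2 change -0.9, SE 0.2, limma, adjusted p = 0.042). The adenosine receptor Adora2b had 2.97, 3.41 and 2.43 FPKM in R and 5.14, 4.74 and 5.74 FPKM in vehicle (log2 change -0.66, SE 0.12, limma, adjusted p = 0.026). Neither pair of groups overlapped, with all R values below, as in 15.5% of all tested genes. Each of these calls held in only 1 of the 6 fits that left out a library, that without vehicle replicate 3 for Entpd1 and that without R replicate 2 for Adora2b. Macrophages express both genes, and 10 of 15 macrophage markers had all R values below all vehicle values, as 15.5% of all tested genes did; their part in the levels of these genes was not tested.

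Receptors that act with endoglin, the CD200 receptor and hyaluronan synthase showed no call. Tgfbr3 (betaglycan) averaged 3.6 ± 2.21 FPKM in R and 8.98 ± 2.41 FPKM in vehicle (SD, n = 3 each; log2 change -1.22, limma, adjusted p = 0.1). Acvrl1 (ALK1), the endothelial partner of endoglin, averaged 6.9 ± 1.47 FPKM in R and 9.83 ± 1.69 FPKM in vehicle (log2 change -0.46, limma, adjusted p = 0.15). Cd200r1 averaged 13.0 ± 1.49 FPKM in R and 16.9 ± 3.43 FPKM in vehicle (log2 change -0.34, limma, adjusted p = 0.22). Has2, which makes the CD44 ligand hyaluronan, averaged 2.94 ± 1.36 FPKM in R and 2.83 ± 2.31 FPKM in vehicle.

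**Figure D4:**
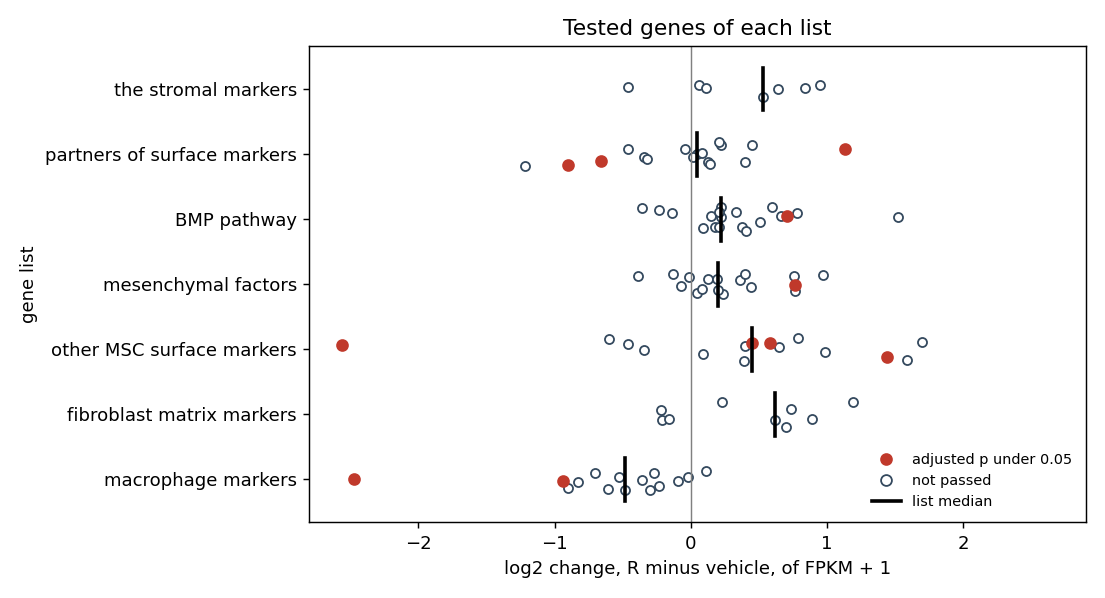
Log2 change, as log2(FPKM + 1) in R minus that in vehicle, of every tested gene of 7 lists, with called genes filled in red and list medians as black bars. The median is 0.53 for the stromal markers, 0.62 for the fibroblast markers and -0.48 for the macrophage markers, and Ly6a lies at the far left of the other MSC surface markers.

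Among genes of the BMP pathway in which Grem1 acts, 19 of 26 were tested, 1 was called higher and 0 lower, and 16 of the 19 had positive values (median 0.22). For all tested genes these shares were 2.39% called higher, 4.43% called lower and 49.3% positive. Smad7, an intracellular inhibitor of TGF-beta and BMP signals, had 30.2, 31.0 and 33.7 FPKM in R and 15.0, 19.3 and 23.1 FPKM in vehicle. All R values lay above all vehicle values, as in 13.9% of all tested genes (log2 change 0.71, SE 0.15, limma, adjusted p = 0.037). The call held in 1 of the 6 fits that left out a library, that without vehicle replicate 3. The related inhibitor Smad6 averaged 55.6 ± 5.41 FPKM in R and 36.9 ± 9.03 FPKM in vehicle (adjusted p = 0.1 in limma). Nbl1, a BMP antagonist of the same family as Grem1, averaged 34.2 ± 8.64 FPKM in R and 21.2 ± 4.61 FPKM in vehicle (adjusted p = 0.11 in limma). Id1, Id2 and Id3, target genes of BMP signals, had log2 changes of 0.22, 0.21 and 0.33 that did not pass.

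Of 24 other mesenchymal transcription factors and partners of Twist proteins, 17 were tested, 1 was called higher and 0 lower, and 13 had positive values (median 0.2). All tested genes had 2.39% called higher, 4.43% called lower and 49.3% positive. The homeobox factor Msx2 had 2.51, 3.54 and 2.62 FPKM in R and 1.07, 1.37 and 1.36 FPKM in vehicle (log2 change 0.77, SE 0.14, limma, adjusted p = 0.023). Its R values all lay above its vehicle values, as in 13.9% of all tested genes. Leaving out R replicate 2, or either of vehicle replicates 1 and 2, ended the call (limma, adjusted p at most 0.086). Foxc2, a forkhead factor, averaged 19.9 ± 3.44 FPKM in R and 9.96 ± 3.24 FPKM in vehicle (log2 change 0.97, adjusted p = 0.059 in limma). Snai1, a zinc finger repressor of epithelial genes, averaged 24.3 ± 6.05 FPKM in R and 14.1 ± 4.09 FPKM in vehicle (adjusted p = 0.11 in limma). Prrx2, the paralogue of Prrx1, was more abundant per length than Prrx1 in every library, and their ratio (Prrx1 over Prrx2) was 0.662, 0.376 and 0.506 in R and 0.731, 0.585 and 0.482 in vehicle. The E-proteins Tcf3, Tcf4 and Tcf12, which pair with Twist1, had log2 changes of -0.07, -0.01 and -0.13.

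Other surface proteins used to mark MSCs changed in both directions. Of 16 listed, 15 were tested, 3 were called higher and 1 lower, and 11 had positive values (median 0.45). Across all tested genes 2.39% were called higher, 4.43% were called lower and 49.3% were positive. The call in the downward direction was Ly6a (Sca-1), which interferon also induces, with 12.7, 30.4 and 25.8 FPKM in R and 194.0, 153.0 and 77.1 FPKM in vehicle (limma, adjusted p = 0.015). Its call ended without vehicle replicate 2 (limma, adjusted p = 0.053). Cd9, a tetraspanin, averaged 147.0 ± 10.2 FPKM in R and 107.0 ± 5.77 FPKM in vehicle (limma, adjusted p = 0.034), and Cd151, another tetraspanin, averaged 74.7 ± 12.5 FPKM in R and 49.5 ± 4.6 FPKM in vehicle (limma, adjusted p = 0.0498). The pericyte proteoglycan Cspg4 had 5.5, 1.74 and 1.82 FPKM in R and 0.29, 0.55 and 0.247 FPKM in vehicle (limma, adjusted p = 0.047). Cspg4 reached 1 FPKM in R libraries only, and so entered the test through the group where it was high. The groups of these 4 genes did not overlap, as in 13.9% (all R above) and 15.5% (all R below) of all tested genes. The call of Cd9 held only without R replicate 2, that of Cspg4 only without R replicate 1, and that of Cd151 in none of the 6 fits that left out a library (limma, adjusted p at most 0.17). The leptin receptor Lepr, a marker of marrow stroma in mice, was at 0.112 ± 0.0163 FPKM in R and 0.115 ± 0.0952 FPKM in vehicle (SD, n = 3 each), below the filter.

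Markers of fibroblasts and macrophages are given beside the stromal ones. Of 9 tested fibroblast markers 0 passed, 6 had positive values, and the median of 0.62 was close to the 0.53 of the stromal markers. Positive values were found in 49.3% of all tested genes. The negative log2 changes in the fibroblast list were those of Col3a1 (-0.22), Col6a1 (-0.21) and Loxl1 (-0.16), with groups that overlapped. Collagen Col1a1 averaged 479.0 ± 136.0 FPKM in R and 214.0 ± 75.7 FPKM in vehicle (log2 change 1.19, adjusted p = 0.079 in limma), Col5a1 averaged 131.0 ± 21.2 FPKM in R and 79.4 ± 19.4 FPKM in vehicle (adjusted p = 0.079 in limma), and fibronectin Fn1 and Col1a2 had log2 changes of 0.7 and 0.62 that did not pass. Of the 15 macrophage markers 2 were called lower and 0 higher, the integrin Itgam (CD11b; 11.8, 11.5 and 10.9 FPKM in R and 27.3, 21.5 and 20.3 FPKM in vehicle) and the IgG receptor Fcgr1 (7.96, 7.62 and 6.56 FPKM in R and 66.1, 44.6 and 31.3 FPKM in vehicle), with a median of -0.48 (limma, adjusted p = 0.0058 for Itgam and 0.0021 for Fcgr1). A lower call was made in 4.43% of all tested genes and a higher call in 2.39%. The next of the macrophage list by p were C1qa (log2 change -0.9) and Mrc1 (-0.83), which did not pass. Other macrophage markers differed little, with groups that overlapped. Their log2 changes were 0.11 for Cd68, -0.02 for Mertk, -0.09 for Tyrobp, -0.23 for Lyz2 and -0.3 for Csf1r, and none of them passed. Ptprc (CD45), by whose absence MSCs are usually defined, averaged 11.3 ± 2.24 FPKM in R and 16.0 ± 2.73 FPKM in vehicle.

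Endothelial transcripts, of interest because endothelium carries Eng, were low in both groups. The sum of 9 endothelial markers was 8.64, 4.24 and 6.25 FPKM in R and 3.36, 2.47 and 3.41 FPKM in vehicle, each R library above each vehicle library, and 2 of the 9 reached 1 FPKM in any library. Cdh5, the 1 that was tested, averaged 2.14 ± 1.17 FPKM in R and 0.719 ± 0.281 FPKM in vehicle (adjusted p = 0.13 in limma). It reached 1 FPKM in R libraries only, and so entered the test through the group where it was high. The share of each cell type in the levels of the stromal markers was not tested.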

How the data were processed

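RNA of 6 samples was sequenced (3 R, 3 vehicle), and groups and replicate numbers follow the sample titles. The authors deposited FPKM per gene; the submitters' processing notes name edgeR 3.18.1 and the build GRCm38 (mm10). For the aligner, the counter, the annotation and strandedness, the sources used here give nothing. Of 49328 complete lines, 49302 identifiers matched GENCODE M21, which gave symbols, coordinates and exon lengths. Depth was estimated from low values: FPKM times exon length was a whole multiple of 1 read, within 0.02 reads, for 98.3% to 98.4% of values under 20.5 reads in each library. Read numbers cover counting error only, and 3 reads in a gene of 1 kb equal 0.138 to 0.176 FPKM.

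Genes with at least 1 FPKM in at least 3 libraries entered a linear model of log2(FPKM + 1) in limma 3.58.1 (R 4.3.3), with 2 groups, no block, empirical Bayes with a variance trend, and Benjamini-Hochberg adjustment over 11862 genes at a threshold of 0.05. The scale understates changes of low genes. Genes below the filter got exact permutation tests. Genes named are the 10 markers, the called members and up to 4 tested members with the smallest p of each companion list, and the 5 genes most like the mean profile. Others (Itgav, Has2, Acvrl1, Cd200r1, Slc29a1, Ada, Adora1, Adora2a, the Id and E-protein genes, Prrx2, Lepr, Dcn, Lum, Col3a1, Col6a1, Loxl1, Ptprc, Lyz2, Cd68, Mertk, Tyrobp, Csf1r, Cd3e, Cd2, Gzmb, Prf1) were chosen after their values were seen. Genes of the companion lists that the rule names but the text does not are not reported here. Members and lists were chosen with earlier results of these data known. Alternatives were other pseudocounts, filters and scalings, no variance trend, a replicate block and leaving out each library.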

Additional observations from a re-analysis of the deposited data

How the results depend on the processing

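The count of called stromal markers was 0 in both directions in each alternative but the replicate block. With the replicate block 2 were called higher, Grem1 (adjusted p = 0.034) and Twist1 (adjusted p = 0.029), at unchanged log2 changes of 0.84 and 0.64. The labels share replicate numbers between groups. Deviations from the group means over the tested genes correlated at r = 0.142, -0.0117 and -0.0309 between same-numbered libraries. For 2 of the 3 R libraries the highest correlation was with another number. Deviations from means of 3 libraries cannot show whether same-numbered libraries share a mouse or a batch. Whether the block applies is therefore not known. The block also gave 4 higher calls for the BMP list, 4 for the transcription factors, 1 for the fibroblast markers, 3 for the other MSC surface markers (0 of them among the 3 reported, so that Cd9, Cd151 and Cspg4 were all lost), 0 lower calls for the surface partners and 4 lower for the macrophage markers. Log2 changes kept their sign in all alternatives for 7 markers; the others, with single libraries left out, were Cd44 (-0.05 to 0.17) and Alcam (-0.04 to 0.27), both negative without R replicate 3, and Nt5e (-0.03 to 0.38). Without a filter on low values 65 genes were called higher and 279 lower, against 284 and 525, and the surface partners, BMP genes, transcription factors and other MSC surface markers had 0 higher calls, with 0 lower calls for the surface partners and for the other MSC surface markers. With at least 5 FPKM in 3 libraries the surface partners had 0 higher and 1 lower call. A pseudocount of 5 left 1 higher call among the other MSC surface markers, and quantile normalization gave 4 lower calls among macrophage markers. Leaving out single libraries gave 63 to 352 higher and 272 to 527 lower calls over all genes, the lowest higher count without vehicle replicate 1 and the lowest lower count without vehicle replicate 2. The ranges over the lists were 0 to 1 higher and 0 to 1 lower for surface partners, 0 to 2 higher for the BMP list, 0 to 2 for the transcription factors, 0 to 2 higher and 0 to 1 lower for the other surface markers, and 2 to 4 lower for macrophage markers. The cause of these shifts was not tested. At 3 to 19 reads per R library, depth limits the value of Thy1, and the low reads of Nt5e and Twist2 limit theirs.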
